A study of Mus musculus with 8 samples.

Results

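The 10 genes described here encode enzymes that build purine and pyrimidine nucleotides from small precursors. They were chosen by name, as Ppat, Gart, Pfas, Paics, Adsl, Atic and Impdh2 of the purine route and Cad, Umps and Ctps1 of the pyrimidine route. Of the 19055 gene symbols measured, 9 matched these names directly. Ctps1 was found under its older symbol Ctps through the synonyms in RefSeq. All 10 had at least 10 normalized reads in at least 3 libraries and were tested, along with 13704 genes in all.

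Whole liver of mice aged 8 to 9 weeks was taken 48 hours after partial hepatectomy, and 8 libraries were made. After this operation the remaining hepatocytes divide to restore the organ. For 5 libraries, of genotype URI(+/D)Hep, URI had been deleted in hepatocytes by a Cre recombinase, creERT2, that serum albumin sequences express in these cells and tamoxifen activates. The other 3 libraries, of genotype URI(+/+)Hep, came from wild-type littermates and are called controls below. The +/D notation pairs a wild-type allele with a D allele, all mice were given tamoxifen for 1 week, and all received the analgesic Buprex and isoflurane anaesthesia. The sources used here give neither the strain nor whether each library came from 1 animal, so the tests measure the spread between these libraries.

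Purine rings are built stepwise on a ribose phosphate, from glutamine, glycine, aspartate and one-carbon units carried by folate. The chain ends in inosine monophosphate, which then branches to adenine and guanine nucleotides. Pyrimidine rings are closed first and joined to the ribose phosphate afterwards, which yields uridine monophosphate and, after phosphorylation, cytidine triphosphate. Hepatocytes also recover bases and nucleosides by salvage, and cells that divide draw on both routes for RNA and DNA.

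The E-box CACGTG, the sequence that MYC and its relatives bind, is shown here because nucleotide synthesis genes are known MYC targets and because the pair described first among the results, Ppat and Paics, shares a start region. A window from 250 bases before to 50 bases after the annotated start was searched, in the RefSeq sequences of build GRCm38.p6. Windows were found for 9 of the 10 genes, all but Pfas, and the word stood in 3 of their 10 windows, against 7.15% of all 32851 windows. The 3 stretches read as follows on the gene's own strand, with the E-box in capitals.
Paics, chr5:76951087-76951116 on the plus strand, E-box 203 bases before the start: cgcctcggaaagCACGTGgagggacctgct
Atic, chr1:71557137-71557166 on the plus strand, E-box 7 bases before the start: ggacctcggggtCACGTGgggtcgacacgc
Impdh2, chr9:108560314-108560343 on the plus strand, E-box 110 bases before the start: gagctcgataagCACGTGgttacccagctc
Ppat and Paics lie on opposite strands with overlapping 5′ ends, which share 277 bases, so the Paics E-box lies inside the transcribed part of Ppat. CACGTG reads the same on both strands. The other motifs were searched on both strands. TGATGNAA, the composite site of ATF4, stood in 0 of the 10 windows (3.97% of all). The E2F words TTTCGCGC and TTTGGCGC also stood in 0 (0.323% and 0.514% of all). The longer NRF1 motif stood in the Ctps window (0.971% of all), and CCGGAAGT, an ETS site, stood in that of Gart (3.89% of all). A match is a description of the letters, not of binding.

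Depth ranged from 4294494 to 4800694 recovered reads in libraries labelled URI(+/D)Hep and from 3838674 to 4337966 in controls. Uri1, the targeted gene, had 328 to 437 normalized reads in libraries labelled URI(+/D)Hep and 310.0 to 468 in controls, log2 fold change 0.01 with SE 0.15 (adjusted p = 0.975 by limma). A 3′ tag outside the deleted part need not show a deletion, so groups are named by their labels. Hepatocyte markers (Alb, Apoa1, Ttr, Cps1 and Serpina1a) summed to 22791 to 24825 against 22330 to 25125, so the tissue label held. The sum hides a difference in Cps1, at 2709 to 3682 against 1077 to 1880 normalized reads. Its log2 fold change was 1.03 with SE 0.20 (adjusted p = 0.108 by limma), and 6.13% of all genes were likewise higher without overlap. Both Xist and Y-linked transcripts were present in URI(+/D)Hep 2 to 5 and in control 3, while URI(+/D)Hep 1 had Y-linked reads of 3.54 in sum and controls 1 and 2 had Xist at 9.59 and 2.95. Xist is expressed in female and Y-linked genes in male cells, and the labels say nothing of pooled animals. Sum levels of 4 endothelial markers were 1863 to 2108 against 1358 to 1798, those of 3 B cell markers 64.8 to 107 against 10.8 to 56.1, and those of 4 cholangiocyte markers 129 to 765 against 147 to 1185. No marker of these lists was at 0 in all libraries. The part of these other cells in the values below was not tested. In whole tissue, fewer cells of a type and less RNA per cell cannot be told apart.

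None of the 10 genes was called different between the groups. By limma on log2(value + 1), 0 passed an adjusted p of 0.05 in either direction, where 2 of all genes tested did, both lower (0.0146%). On the recovered reads edgeR also called 0 of the 10, against 0.0219% of all genes. DESeq2 gave no adjusted p for Cad and Impdh2 and called 0 of the other 8, against 6.67% of all genes it adjusted. At an unadjusted p under 0.05 limma gave 1 of the 10, Cad, against 17.7% of all genes. The groups overlapped in every one of the 10, whereas in 13.4% of all genes they did not (6.13% higher and 7.3% lower). Log2 fold changes were negative for 8 genes and positive for 2, against 6875 negative and 6829 positive of all genes tested. Their median was -0.22 against -0.0019 over all genes tested. Between libraries of a group, the members' median deviation had an SD of 0.13 on the log2 scale. The intervals leave room for changes of either sign in all genes but Cad. The widest, that of Ctps, ran from 0.338- to 1.17-fold of the control, and the narrowest, that of Gart, from 0.668- to 1.01-fold. With the share of Y-linked reads as a covariate 0 of the 10 were called, and values moved by over 1.5 times for 5 genes. The log2 difference was then -0.09 for Ctps, 0.26 for Paics, -0.57 for Impdh2, -0.33 for Umps and -0.16 for Adsl, and none had an adjusted p from limma under 0.05.

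**Figure D1:**
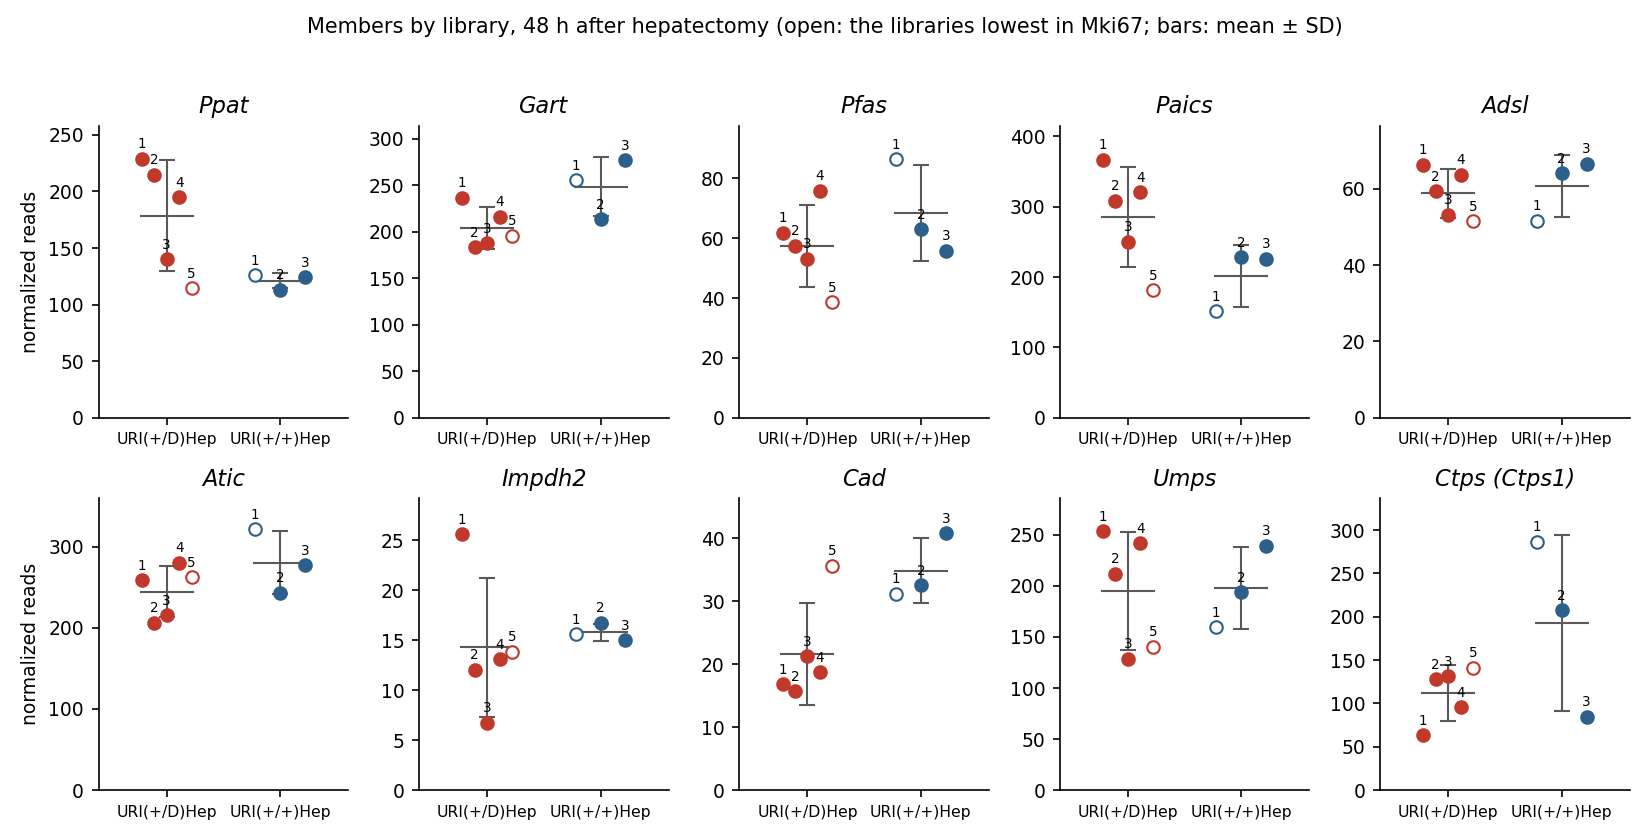
Normalized reads (y axes, each from 0) of the 10 enzymes in 5 libraries labelled URI(+/D)Hep (red, left) and 3 URI(+/+)Hep controls (blue, right). Points are libraries numbered by replicate, bars are mean ± SD, and open points are URI(+/D)Hep 5 and control 1, the libraries lowest in Mki67. Ppat and Paics have 4 red points above all blue ones, and Cad and Impdh2 have 4 below.

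The genes with positive fold changes were Ppat and Paics. Ppat encodes the amidotransferase that commits ribose phosphate to the purine chain and is inhibited by its end products. It had 229, 215, 140.1, 195 and 115 normalized reads in URI(+/D)Hep 1 to 5, against 126, 113 and 124 in controls 1 to 3. URI(+/D)Hep 1 to 4 stood above all 3 controls and URI(+/D)Hep 5 within their range. The means were 179 ± 49.2 (SD, n = 5) and 121 ± 6.94 (SD, n = 3), log2 fold change 0.51 with SE 0.23 (adjusted p = 0.285 by limma). The controls varied little, and nearly all of the spread lay among libraries labelled URI(+/D)Hep.

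Paics, whose protein carries out the carboxylation and the aspartate addition in the middle of the chain, followed a like order. It had 367, 308, 250.3, 320.4 and 181 normalized reads in URI(+/D)Hep 1 to 5, against 151, 228 and 226 in controls 1 to 3. The same 4 libraries that led Ppat, URI(+/D)Hep 1 to 4, stood above all controls, and URI(+/D)Hep 5 was again the lowest of its group. Its means were 285 ± 71.6 (SD, n = 5) and 202 ± 44.1 (SD, n = 3), log2 fold change 0.48 with SE 0.24 (adjusted p = 0.330 by limma). Without control 1, the lowest library, the log2 fold change was 0.29 (adjusted p = 0.631 by limma). Annotated copies Gm19241 and Gm4797 match 250 and 251 bases of its last 500 at 92.0% and 91.2% identity, so some reads of Paics may have been lost or gained between them. Both copies were not analysed here.

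The remaining enzymes of the purine chain did not share this order. Gart catalyses 3 separate steps of the chain in 1 protein, among them a transfer of a one-carbon unit. It had 237, 183, 188, 216 and 196 normalized reads in URI(+/D)Hep 1 to 5, against 255, 214 and 277 in controls 1 to 3. URI(+/D)Hep 2, 3 and 5 lay below all controls, while URI(+/D)Hep 1 and 4 lay just above control 2. Means were 204 ± 22.4 (SD, n = 5) and 249 ± 32.1 (SD, n = 3), log2 fold change -0.28 with SE 0.13 (adjusted p = 0.305 by limma).

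Atic performs the last 2 steps, which bring in a one-carbon unit from folate and close the ring. It reached 259, 206, 216, 280.1 and 262 normalized reads in URI(+/D)Hep 1 to 5, against 321, 243 and 277 in controls 1 to 3. The groups overlapped, with control 1 the highest of all libraries and URI(+/D)Hep 2 the lowest. The log2 fold change was -0.20 with SE 0.14 (adjusted p = 0.503 by limma), and -0.09 without control 1. Pfas, which adds a nitrogen from glutamine, had 61.9, 57.4, 53.2, 75.9 and 38.6 normalized reads in URI(+/D)Hep 1 to 5, against 86.3, 63.0 and 55.8 in controls 1 to 3. Its extremes were control 1 and URI(+/D)Hep 5, the libraries that are lowest in Mki67. The log2 fold change of Pfas was -0.26 with SE 0.24 (adjusted p = 0.611 by limma) with all libraries, -0.08 without control 1 and 0.05 without both.

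Adsl, the lyase that acts both in the chain and on the adenine branch, was the steadiest of the 10. Its values were 66.3, 59.3, 53.2, 63.7 and 51.4 normalized reads in URI(+/D)Hep 1 to 5, against 51.6, 64.0 and 66.5 in controls 1 to 3. The highest library held 1.29 times the reads of the lowest, and both extremes of the groups lay almost at the same levels. The log2 fold change was -0.04 with SE 0.16 (adjusted p = 0.915 by limma), with an interval of 0.752- to 1.25-fold.

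Impdh2, the dehydrogenase that commits inosine monophosphate to guanine nucleotides, was counted from only 7 to 29 reads a library. It had 25.6, 12.04, 6.77, 13.1 and 13.8 normalized reads in URI(+/D)Hep 1 to 5, against 15.6, 16.7 and 15.02 in controls 1 to 3. URI(+/D)Hep 1 was the highest of all libraries. URI(+/D)Hep 2 to 5 lay below all controls, with URI(+/D)Hep 3 the lowest. For URI(+/D)Hep 3 the exact Poisson interval of its 7 reads was 2.72 to 13.9 normalized reads, which covers counting error only. The log2 fold change was -0.25 with SE 0.38 (adjusted p = 0.770 by limma).

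Most reads that can be assigned to this sequence stood in another row, Impdh2-ps, an annotated pseudogene whose last 500 bases match those of Impdh2 at 99.8%. Impdh2-ps had 144, 127, 100.5, 120 and 124 normalized reads in URI(+/D)Hep 1 to 5, against 156, 135 and 166 in controls 1 to 3. Impdh2 held between 6.31% and 15.1% of the sum of both rows. No source used here says how reads that match both were assigned, so both levels are uncertain.

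Summed, the pair reached 169.7, 139, 107, 133 and 137 normalized reads in URI(+/D)Hep 1 to 5, against 171, 152 and 181 in controls 1 to 3. URI(+/D)Hep 2 to 5 again lay below all controls, and URI(+/D)Hep 1 now lay within their range. The log2 fold change of the sum was -0.30 with SE 0.16 (adjusted p = 0.344 by limma), a setting chosen after seeing the data. The annotated end of Impdh2 also overlaps Ndufaf3 on the opposite strand.

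Cad was the member with the smallest unadjusted p. Its protein carries the first steps of pyrimidine synthesis, from glutamine and bicarbonate to dihydroorotate. Cad had 16.8, 15.7, 21.3, 18.7 and 35.6 normalized reads in URI(+/D)Hep 1 to 5, against 31.2, 32.5 and 40.8 in controls 1 to 3. URI(+/D)Hep 1 to 4 stood below all controls, and URI(+/D)Hep 5 lay within their range. Means were 21.6 ± 8.09 (SD, n = 5) and 34.8 ± 5.20 (SD, n = 3), log2 fold change -0.71 with SE 0.29 (by limma, adjusted p = 0.244 and unadjusted 0.0344). These values rest on 17 to 38 reads a library, and the Poisson interval of URI(+/D)Hep 1, 10.1 to 26.2 normalized reads, overlaps that of control 1, 20.4 to 45.7, but not that of control 3, 28.8 to 56.0.

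Umps, which attaches the finished ring to ribose phosphate and removes a carboxyl group to give uridine monophosphate, showed wide but overlapping groups. Its values were 254, 212, 129, 242 and 140.4 normalized reads in URI(+/D)Hep 1 to 5, against 159.5, 194 and 239 in controls 1 to 3. The lowest libraries were URI(+/D)Hep 3 and 5, and URI(+/D)Hep 1 was the highest. The log2 fold change was -0.05 with SE 0.26 (adjusted p = 0.939 by limma).

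Ctps, one of the paired synthetases that turn uridine triphosphate into cytidine triphosphate, had the widest range of the 10. It had 63.6, 128, 131, 95.5 and 141 normalized reads in URI(+/D)Hep 1 to 5, against 287, 208 and 84.8 in controls 1 to 3. Controls 1 and 2 stood above every library labelled URI(+/D)Hep, and control 3 below all but URI(+/D)Hep 1. Means were 112 ± 32.02 (SD, n = 5) and 193 ± 102 (SD, n = 3), log2 fold change -0.67 with SE 0.40 (adjusted p = 0.409 by limma). Leaving out control 3 gave -1.17 and leaving out control 1 gave -0.30, while the covariate for Y-linked reads gave -0.09 (adjusted p = 0.118, 0.770 and 0.869 by limma). The 2 controls high in Ctps were also those near 0 in Xist. Sox9, a cholangiocyte marker, had 108 to 175 normalized reads in libraries labelled URI(+/D)Hep, against 1141, 631 and 121 in controls 1 to 3. Epcam, another marker of these cells, did not share this order. It had 7.96, 27.8, 30.0, 12.2 and 525 normalized reads in URI(+/D)Hep 1 to 5, against 28.8, 27.6 and 15.02 in controls 1 to 3. The part of these cells in the value of Ctps was not tested.

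The sums by route describe how the pathway as a whole stood. The 7 purine genes summed to 1245, 1042, 907, 1164 and 857 normalized reads in URI(+/D)Hep 1 to 5, against 1007, 942 and 1042 in controls 1 to 3. These sums overlapped, with libraries labelled URI(+/D)Hep at both ends. The 3 pyrimidine genes summed to 334, 356, 281, 356 and 317 normalized reads in URI(+/D)Hep 1 to 5, against 477, 434 and 365 in controls 1 to 3. The highest of the libraries labelled URI(+/D)Hep, at 356, was thus just under the lowest control, at 365. Control 3 reached that sum with the most Umps and Cad among the controls and the least Ctps. Umps had nearly equal group means, 195 ± 57.7 (SD, n = 5) and 198 ± 39.99 (SD, n = 3). Ctps made up 287 and 208 normalized reads of the sums of controls 1 and 2. Its log2 fold change was -0.09 with the share of Y-linked reads as a covariate. The sums themselves were not tested between the groups.

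**Figure D2:**
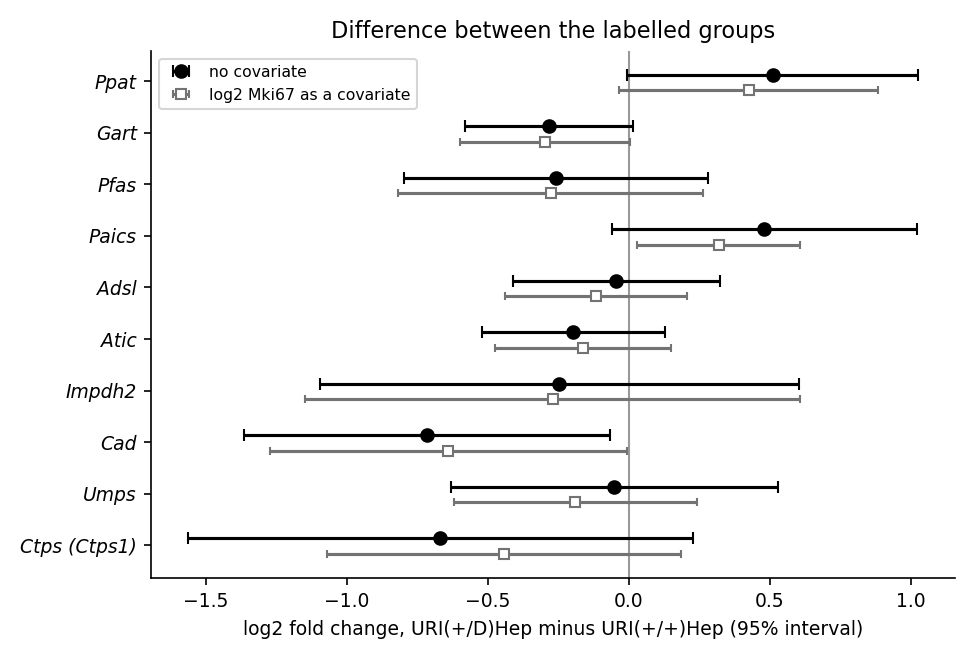
Log2 fold change (x axis, URI(+/D)Hep minus URI(+/+)Hep) of the 10 enzymes (y axis) with 95% intervals, from limma without a covariate (black circles) and with log2 Mki67 as a covariate (open grey squares). Ppat and Paics are the 2 values right of 0, and the intervals without a covariate cross 0 for all genes but Cad.

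Mki67, a marker of dividing cells, was the yardstick for proliferation in each library. It had 469, 333, 268, 586 and 49.5 normalized reads in URI(+/D)Hep 1 to 5, against 23.99, 282 and 468 in controls 1 to 3. URI(+/D)Hep 5 and control 1 were far below the other 6 libraries, so each group held 1 such library. Slopes, the log2 change of a gene per doubling of Mki67 with genotype in the model, were therefore fitted with and without these 2, and no correlation is given over all 8.

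Paics was the 1 member with a called slope over 8 libraries, where 15.6% of all genes had one, 10.5% positive and 5.17% negative. Its slope was 0.20 (SE 0.04, limma adjusted p = 0.0105). Without control 1 the slope was 0.26 (limma adjusted p = 0.0267), without URI(+/D)Hep 5 it was 0.16 (limma adjusted p = 0.0530), and without both it was 0.25 (SE 0.15, limma adjusted p = 0.379). The call was thus lost in the last 2 of these fits, the slope remaining positive with a larger error. Over these 6 libraries 0 of the 10 were called, against 4.04% of all genes, 2.16% positive and 1.88% negative.

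Umps and Ctps had slopes of opposite sign that came next to the threshold. Umps had a slope of 0.17 (SE 0.06, limma adjusted p = 0.0850) over 8 libraries and 0.67 (SE 0.19, limma adjusted p = 0.0856) over 6. Ctps had -0.28 (SE 0.09, limma adjusted p = 0.0597) over 8 and -0.95 (SE 0.30, limma adjusted p = 0.109) over 6. Ctps was thus highest where Mki67 was lowest, in control 1, and lowest in URI(+/D)Hep 1 and control 3, both high in Mki67. The sum of Y-linked reads was likewise highest in control 1, at 1558, and lowest in URI(+/D)Hep 1 and control 3, at 3.54 and 569. No slope was fitted with the share of Y-linked reads in the model. With the mean of Mcm2 to Mcm7 and Pcna in place of Mki67, both genes passed the threshold, Umps at 0.39 (limma adjusted p = 0.0190) and Ctps at -0.55 (limma adjusted p = 0.0469).

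The other slopes over 8 libraries lay between -0.09 for Cad and 0.10 for Ppat, and their adjusted p-values from limma between 0.205 and 0.892. Atic changed sign with the low libraries, at -0.04 over 8 libraries and 0.35 over 6 (limma adjusted p = 0.153). Control 1 had the most Atic and the least Mki67. Cad turned likewise, at -0.09 over 8 and 0.04 over 6.

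Over the 6 libraries other than URI(+/D)Hep 5 and control 1, correlations of log2 values with Mki67 were tested for the 10 genes by an exact two-sided permutation test over 720 pairings. The smallest p that it can give is 0.00139. Umps had Pearson's r = 0.81 (exact permutation p = 0.0208, adjusted over all genes 0.409) and Spearman's rho = 0.94 (exact permutation p = 0.0167, adjusted 0.355). Without URI(+/D)Hep 3 and 4, the libraries farthest from the median of Mki67, its r was 0.98 over 4 libraries. After adjustment 0 of all genes passed, and at an unadjusted p under 0.05 Umps was the 1 member, against 7% of all genes with a positive and 4.62% with a negative r.

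Ctps had r = -0.77 (exact permutation p = 0.0819, adjusted 0.446) and rho = -0.77 (exact permutation p = 0.103, adjusted 0.470), with r = -0.97 over the 4 libraries. Atic had r = 0.81 (exact permutation p = 0.0778, adjusted 0.443) and rho = 0.77 (exact permutation p = 0.103, adjusted 0.470), with 0.64 over the 4. Values of r for the others ran from -0.10 for Cad to 0.67 for Adsl, with exact permutation p-values from 0.15 to 0.810. For Pfas, r was 0.63 over 6 libraries and -0.39 over the 4, so it rests on URI(+/D)Hep 3 and 4.

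**Figure D3:**
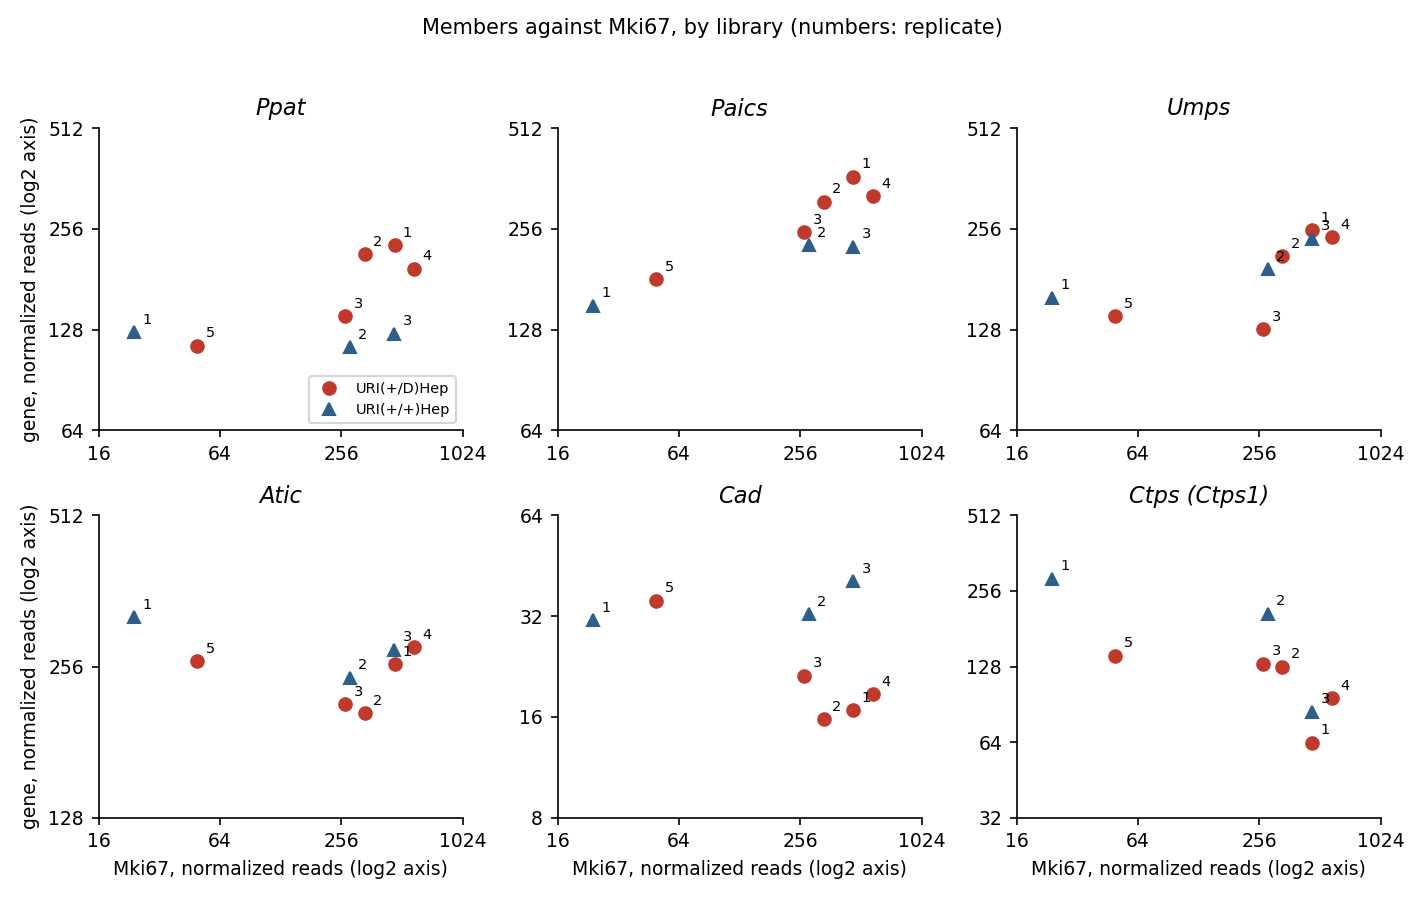
Normalized reads of 6 enzymes (y axes, log2) against Mki67 (x axes, log2), with red circles for libraries labelled URI(+/D)Hep, blue triangles for URI(+/+)Hep controls, and replicate numbers beside them. Ppat lies between 113 and 126 normalized reads in all 3 controls, while Ctps is at its lowest, 63.6 and 84.8, in libraries high in Mki67.

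Libraries with near equal Mki67, and the pair lowest in Mki67, show the genotype labels side by side. At the high end, URI(+/D)Hep 1 with 469 and control 3 with 468 normalized reads of Mki67 had 229 and 124 of Ppat, 367 and 226 of Paics, and 16.8 and 40.8 of Cad. The same pair had 254 and 239 of Umps and 63.6 and 84.8 of Ctps, which are closer. URI(+/D)Hep 3 and control 2, with Mki67 at 268 and 282, had 250.3 and 228 of Paics and 140.1 and 113 of Ppat. They had 21.3 and 32.5 of Cad, 129 and 194 of Umps and 131 and 208 of Ctps. All of these but Umps kept the direction of the high pair. The Poisson intervals of Cad overlapped here, at 13.3 to 32.2 and 22.4 to 45.6. The low pair, URI(+/D)Hep 5 and control 1, was not so closely matched, with Mki67 at 49.5 and 23.99. In it, Ppat was at 115 and 126 and Cad at 35.6 and 31.2, the reverse of the high pair. Poisson intervals of this pair overlapped, at 94.8 to 138 and 103 to 152 for Ppat and 24.9 to 49.3 and 20.4 to 45.7 for Cad. Umps, at 140.4 and 159.5, was also reversed. Paics, at 181 and 151, and Ctps, at 141 and 287, kept the direction of the high pair. With log2 Mki67 as a covariate the group difference was 0.43 for Ppat (SE 0.21, limma adjusted p = 0.251), 0.32 for Paics (SE 0.13, limma adjusted p = 0.183) and -0.64 for Cad (SE 0.28, limma adjusted p = 0.217). That fit called 0 of the 10 genes, against 1.23% of all genes (0.467% higher and 0.766% lower).

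Other genes of nucleotide metabolism were taken as 8 lists of 73 tested genes, and 0 of them was called in either direction. The enzymes that supply ribose phosphate or sit on the branches had 7 positive and 3 negative fold changes of 10, with a median of 0.15. Prps1, which makes the activated ribose phosphate that both routes use, had 346, 340, 375, 358 and 350.1 normalized reads in URI(+/D)Hep 1 to 5, against 434, 401 and 499.9 in controls 1 to 3. Every library labelled URI(+/D)Hep lay below every control, as in 7.3% of all genes. The log2 fold change of Prps1 was -0.32 with SE 0.10 (adjusted p = 0.161 by limma). Adssl1, a synthetase of the adenine branch, averaged 141 ± 25.8 (SD, n = 5) and 94.6 ± 31.4 (SD, n = 3), log2 fold change 0.60 with SE 0.23 (adjusted p = 0.233 by limma). With log2 Mki67 as a covariate its difference was 0.74 (limma adjusted p = 0.0492), in a fit that called 1.23% of all genes. The supplier of orotate between Cad and Umps, Dhodh, had 49.8 ± 8.08 (SD, n = 5) and 59.4 ± 11.9 (SD, n = 3) normalized reads. Ctps2, the paralogue of Ctps, had 166 ± 39.3 (SD, n = 5) and 129 ± 22.6 (SD, n = 3) normalized reads, and its log2 fold change of 0.35 was not called (adjusted p = 0.420 by limma).

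Salvage and breakdown genes were as mixed. Of 8 nucleotide kinases 6 had negative fold changes (median -0.08), with Guk1, which phosphorylates guanosine monophosphate, at -0.42 (limma adjusted p = 0.233) and Nme4 at -1.06 (limma adjusted p = 0.239) on the log2 scale. Nme4 averaged only 5.24 ± 2.97 (SD, n = 5) and 11.1 ± 1.66 (SD, n = 3) normalized reads. Nme1, Nme2 and Nme3 were not analysed here. Of 14 salvage genes 8 were positive (median 0.03), and the smallest p-values were those of Uck2, a uridine and cytidine kinase (-0.64, limma adjusted p = 0.250), and Tk2, the mitochondrial thymidine kinase (-0.38, limma adjusted p = 0.389).

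Of 14 breakdown genes 9 were positive (median 0.13). Dpyd, the enzyme that starts pyrimidine breakdown, had 5844, 6194, 8754, 6180 and 6649 normalized reads in URI(+/D)Hep 1 to 5, against 2821, 4345 and 5582 in controls 1 to 3. All 5 libraries labelled URI(+/D)Hep stood above all 3 controls, as in 6.13% of all genes. The log2 fold change of Dpyd was 0.70 with SE 0.22 (adjusted p = 0.166 by limma). Dpys, the next enzyme of that route, had log2 fold change 1.26 with SE 0.55 (adjusted p = 0.275 by limma) and its groups overlapped, with 382 to 891 normalized reads in libraries labelled URI(+/D)Hep against 89.9 to 625 in controls. Several of these values were smaller without control 1, at 0.48 for Dpys, 0.43 for Dpyd, -0.23 for Guk1, -0.36 for Uck2, -0.08 for Tk2 and 0.11 for Mthfd1.

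Folate enzymes that supply one-carbon units to Gart and Atic had a median of 0.15 over 6 genes, with Mthfd2 at -0.41 (limma adjusted p = 0.284) and Mthfd1 at 0.44 (limma adjusted p = 0.451). Among 5 tested regulators of 7 listed, Atf4, a transcription factor of the amino acid response, had 926, 852, 1219, 847 and 1183 normalized reads in URI(+/D)Hep 1 to 5, against 1830.1, 1408 and 1461 in controls 1 to 3. Its highest value among the libraries labelled URI(+/D)Hep, 1219, was under its lowest control, 1408, and 7.3% of all genes were likewise lower without overlap. For Atf4 limma gave -0.65 on the log2 scale with SE 0.16 (adjusted p = 0.120), and DESeq2 on recovered reads called it lower (-0.63, adjusted p = 0.0184). DESeq2 called 6.67% of all genes that it adjusted. Mlx, the MAX-like partner of ChREBP, had -0.20 (limma adjusted p = 0.378).

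Slopes on Mki67 were called for 15.6% of all genes over 8 libraries and for 4.04% over 6, and counts near these shares are no result about a list. All 8 S phase genes (Mcm2 to Mcm7, Pcna and Top2a) had called positive slopes over 8 libraries, with a median of 0.51. Of 8 deoxynucleotide supply genes, 5 had called positive slopes, among them those of Rrm2 and Tyms, and 1, Samhd1, a called negative one. Rrm2, a subunit of ribonucleotide reductase, had a slope of 0.61 and Tyms, thymidylate synthase, one of 0.33. Called slopes numbered 3 positive and 3 negative among 14 salvage genes, 3 positive among 14 breakdown genes, 2 positive among 6 folate genes, 1 of each sign among 10 supply and branch enzymes, 1 negative among 5 regulators and 0 among 8 kinases. The 10 synthesis enzymes had a median slope of 0.03, against -0.0032 over all genes tested. Over the 6 libraries without URI(+/D)Hep 5 and control 1, called genes numbered 4 positive in deoxynucleotide supply, 2 positive in breakdown, 1 positive each in S phase and in supply and branch enzymes, 2 negative in salvage, and 0 of the 10 enzymes. Differences between these lists were not tested.

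**Figure D4:**
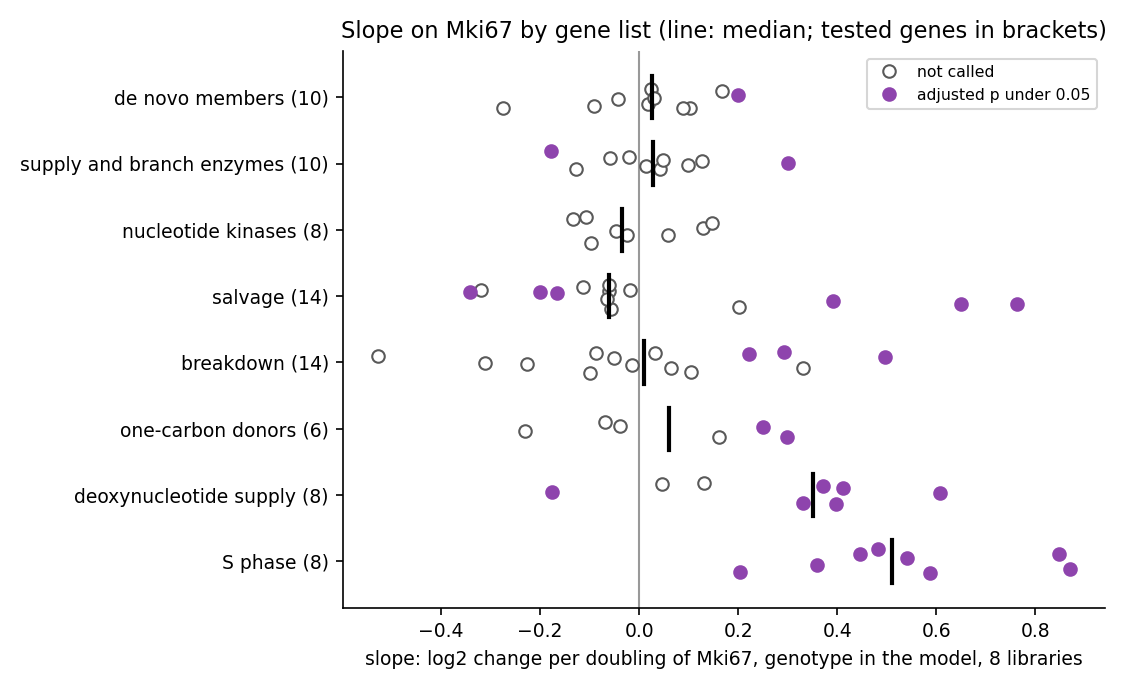
Slope on Mki67 (x axis, log2 change per doubling of Mki67 with genotype in the model, 8 libraries) for each tested gene of the 10 enzymes and 7 of the lists (y axis, number of genes in brackets). Filled purple points passed an adjusted p of 0.05, open points did not, and black lines are medians, which lie at 0.03 for the 10 synthesis enzymes, 0.35 for deoxynucleotide supply and 0.51 for S phase.

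The 10 enzymes did not follow 1 common profile. The mean of their standardized log2 values was 0.48, -0.21, -0.77, 0.33 and -0.57 in URI(+/D)Hep 1 to 5, against 0.25, 0.14 and 0.35 in controls 1 to 3. Against this mean, the members' own r over the 8 libraries ran from -0.24 for Ctps to 0.83 for Umps, as a description over libraries that share depth scaling and the low Mki67 pair. Outside the list, the genes most like the mean by r over the 8 libraries were Srsf2 (0.98), Rfxap (0.97), Mrpl22 (0.97), Gopc (0.96), Irf7 (0.96) and Tpst2 (0.96). Srsf2, a splicing factor, had 825, 678, 554, 842 and 591 normalized reads in URI(+/D)Hep 1 to 5, against 826, 718 and 814 in controls 1 to 3. Like the mean, it was lowest in URI(+/D)Hep 3 and 5 and high in all 3 controls.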

How the data were processed

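RNA of 8 mouse liver libraries was sequenced from the 3′ ends of transcripts with oligo-dT priming, a 6 nt molecular identifier and sense strand libraries, per the labels' protocols. Build GRCm39 and the tools featureCounts, bcl2fastq and DESeq2 come from the submitters' processing notes. The sources used here do not give the aligner, annotation, versions or use of the identifiers, so a value may count reads or molecules. The authors deposited normalized signal, read counts divided by 1 size factor per library. Dividing by each library's smallest value above 0 gave whole reads within 1e-06 for 100% of values. In URI(+/D)Hep 5 that step, 0.989, is close to 1 and less certain, so count tests were also run on 7 libraries. Genes with at least 10 normalized reads in at least 3 libraries, 13704, were tested on the log2(value + 1) scale by limma 3.58.1 (R 4.3.3, mean-variance trend, Benjamini-Hochberg over all genes), which understates changes of low genes. An adjusted p under 0.05 was called. Values are mean ± SD. edgeR 4.0.16 and DESeq2 1.42.0 on recovered reads were alternatives, beside other pseudocounts (0.5 and 8), filters (none, or a mean of at least 50), TMM, quantile scaling, array weights, covariates, a replicate block and each library left out. DESeq2 left 4533 genes without an adjusted p. Correlations used SciPy 1.17.1. Near copies were sought by aligning the last 500 bases of each gene's transcripts to GENCODE M21 transcripts, keeping hits of at least 90% identity over 200 bases. Members, lists and motifs were chosen with earlier results of these data known. Named genes are the 10 members, Uri1, Mki67, the 2 genes of smallest p per list, genes of the supply list, and the 6 genes most like the members' mean; some genes with a called slope are named in addition, and 1 is not reported here. A count of 3 reads equals 2.65 to 3.60 normalized reads. The fits were tested on simulated data.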

Additional observations from a re-analysis of the deposited data

Results flagged for a closer look

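Chance sets 1 sample this far apart in about 1 in 20 groups of 5. Cad in URI(+/D)Hep 5 stood at 35.6 normalized reads, far above the next of its group, 21.3 in URI(+/D)Hep 3. The gap was 0.722 of the group's whole range, over Dixon's 95% critical value for 5 samples. That library was also low in Mki67, at 49.5 normalized reads, and its part in the result was not tested. Dpyd in URI(+/D)Hep 3 stood at 8754 normalized reads, above 6649 in URI(+/D)Hep 5, a gap of 0.723 of the range.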

How the results depend on the processing

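Over 25 alternatives to the group comparison 0 of the enzymes with an adjusted p was called in either direction. Cad and Impdh2 had none with a mean of at least 50 or in DESeq2 on 8 libraries, nor Impdh2 in DESeq2 on 7. The median log2 fold change lay between -0.26 and -0.09. Some fold changes that were not called changed sign. Pfas was at 0.053 without control 1 and URI(+/D)Hep 5, and Umps at 0.074 by edgeR and 0.083 by DESeq2 on 7 libraries. Rrm2 was at -0.097 with log2 Mki67 and at -0.27 with the share of Y-linked reads as covariate, and the share put Mcm6 at -0.19. Single libraries left out moved Adsl between -0.16 and 0.025, Umps between -0.20 and 0.096, Rrm2 between -0.30 and 0.88 and Top2a between -0.33 and 1.62. Genes called in the 8 lists went from 0 to 1 of 73 with log2 Mki67 as a covariate (Adssl1), where 1.23% of all genes were called. DESeq2 also called 1, on 8 and on 7 libraries (Atf4, adjusted p = 0.0184 in both). It called 6.67% of all genes that it adjusted on 8 libraries, and 123 genes higher and 255 lower on 7. Counts near or below such shares are no result about the lists. Called slopes on Mki67 went from 1 to 0 without URI(+/D)Hep 5 and without both low libraries, and to 2 with Mcm2 to Mcm7 and Pcna in its place or without URI(+/D)Hep 3 (Umps). Negative ones went from 0 to 1, Ctps, with Top2a or the Mcm genes in place of Mki67, without genotype and without control 2. Without both low libraries the slopes were 0.35 for Atic and 0.040 for Cad, and without genotype Gart was at -0.0061. Over single libraries left out, slopes ran from -0.064 to 0.0044 for Atic, -0.0063 to 0.061 for Gart, -0.025 to 0.068 for Impdh2, -0.10 to 0.22 for Pfas and -0.27 to 0.055 for Cad, called positive members from 0 to 2 and negative from 0 to 1. The r of Pfas was -0.39 over 4 libraries. The cause of these changes was not tested. A replicate block, with the replicate number as a factor, called 0 members and gave a median of -0.25, where URI(+/D)Hep 4 and 5 share no number with a control. Same-numbered libraries deviated with correlations of -0.40, -0.04 and -0.27. These values show no positive pairing by number, but groups this small cannot exclude it. Low read counts limit Impdh2 and Cad most, and for Impdh2 so does the unknown assignment of reads that also match Impdh2-ps.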
